A study of Mus musculus with 90 samples.

Results

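Gastrocnemius muscle of mice lacking both uncoupling protein 1 (UCP1) and fibroblast growth factor 21 (FGF21), called dKO for double knockout, was compared with gastrocnemius of wild-type (WT) mice across all genes. The members were chosen by their titles: the 6 muscle libraries labelled DKO and the 6 labelled WT, 12 of the 90 libraries of the series. The 6 libraries of mice lacking UCP1 alone (UCP1KO) and the 5 of mice lacking FGF21 alone (FGF21KO), from the same muscle, share the fit and show where dKO stands beside each single loss. All mice were male, and the knockouts are described as homozygous. They grew up at 30 °C. When they were 10 to 12 weeks old the housing was cooled to 18 °C, where they spent 12 days, and a further 3 weeks followed at 5 °C, with food withdrawn for 2 to 3 hours before tissue collection. None of these muscle libraries is described as coming from warm-housed mice, so every difference described here is a difference between genotypes in the cold. The series text once writes FGF12 for the second gene, while its title and sample protocols write FGF21. The labels give neither the strain background nor the mouse behind each library. The p-values therefore weigh a difference between groups against the spread among labelled samples, which may be partly technical.

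UCP1 is the inner membrane carrier that lets brown fat mitochondria release fuel energy as heat, and FGF21 is a hormone made mainly by liver and, under stress, by fat and muscle. A mouse without UCP1 that lives in the cold has to defend its temperature by other means, of which shivering of skeletal muscle is the best known. Cold-inducible RNA-binding proteins such as RBM3 and CIRBP rise in mammalian cells when temperature drops by a few degrees, so their transcripts report on tissue temperature as well as on other stimuli. Interferon-stimulated genes encode antiviral and antigen-presenting proteins and are switched on through factors such as IRF9 and IRF7 in many cell types, muscle fibres and resident macrophages included.

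Library totals ran from 41.7 M to 60.8 M counts in WT and from 45.2 M to 61.0 M in 5 dKO libraries, while dKO replicate 1 held 18.1 M. Levels are given in CPM, the usual count of a gene relative to the scaled total of its library. The tissue matched its label: the 13 fast fibre genes in the list summed to 152375 to 192833 CPM in WT and to 152775 to 166878 CPM in dKO. Neither targeted gene could check the genotype in muscle. Fgf21 had 0 to 2 counts in each WT and dKO library. Ucp1 ran from 0.413 to 2.78 CPM in WT (median 1.43) and from 1.41 to 11 CPM in dKO (median 2.56), a log2 difference of 1.40 (SE 0.50) with an adjusted p of 0.0826. The dKO libraries numbered 1 and 6 held the most Ucp1, at 7.38 and 11 CPM, and overlapped no other library of either group. Gene counts cannot tell a shortened knockout transcript from a whole one.

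Of 15120 genes tested, 1558 (10.3%) differed between dKO and WT at an adjusted p under 0.05, by edgeR's quasi-likelihood test with Benjamini-Hochberg adjustment over all genes tested. This test and threshold stand behind every adjusted p below, and a gene said to have risen or fallen passed it. In dKO 733 genes (4.85%) were higher and 825 (5.46%) lower. Every count of called list members below, for dKO against WT, stands beside these shares of all genes. The changes were mostly small: 243 called genes (1.61%) moved over 1.5-fold and 86 over 2-fold, and the median log2 fold change of all tested genes was 0.0034. In 740 genes (4.89%) the 6 dKO libraries did not overlap the 6 WT libraries, 286 of them (1.89%) with dKO above and 454 (3%) with dKO below. Leaving out 1 library at a time gave 1092 to 1930 called genes. Higher calls fell to 478 without dKO replicate 6. Of 127 called genes followed through those 12 fits, nearly all chosen by a fixed rule and 4 after their values were seen, 93 kept their call in every fit. Where a number of fits stands beside a gene, its call held in that many. Hadha, Lipe, Acly, Elovl6 and Sod2, also named after their values were seen, were not followed in this way. Nor were Gbp3, Trim30a and Irgm1, which are named for their promoter windows.

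Among the cold-inducible RNA-binding genes, Rbm3 and Cirbp fell clearly, while the list as a whole moved little. Of 8 listed genes, 3 were lower and 1 higher in dKO (median log2 fold change -0.07), beside 10.3% called among all genes. Rbm3, which binds RNA and supports translation and synapse maintenance in the cold, ran from 77.8 to 103 CPM in WT (median 92.7) and from 39.0 to 62.2 CPM in dKO (median 44.2). Every dKO library lay below every WT library, and the log2 fold change was -1.01 (SE 0.11, adjusted p = 1.86e-05). Cirbp, the second classic cold-inducible RNA-binding gene, ran from 32.7 to 37.7 CPM in WT (median 34.9) and from 21.6 to 27.9 CPM in dKO (median 24.1). Again the groups did not overlap, and Cirbp fell by 0.55 on the log2 scale (SE 0.06, adjusted p = 2.11e-06). The highest dKO library for both genes was replicate 1. Without dKO replicates 1 and 6 together both stayed lower (adjusted p = 1.08e-05 for Rbm3 and 5.82e-06 for Cirbp).

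Among cold-shock domain genes the directions were mixed. Ybx1, a broadly expressed cold-shock domain protein that packages mRNA, fell by 0.19 on the log2 scale (SE 0.04, adjusted p = 0.00526), from a WT range of 437 to 512 CPM to a dKO range of 395 to 433 CPM. Ybx2, the germ cell member of the same family, ran from 3.78 to 4.96 CPM in WT (median 4.23) and from 6.17 to 7.72 CPM in dKO (median 6.85). All 6 dKO libraries lay above all WT libraries (log2 fold change 0.65, SE 0.11, adjusted p = 0.000413). Others did not pass: Ybx3 at -0.10, Csdc2 at -0.05 and Carhsp1 at 0.20. In UCP1KO muscle the values against the same WT libraries were -0.84 for Rbm3, -0.58 for Cirbp and 0.52 for Ybx2, each past the threshold (adjusted p = 8.46e-05, 1.03e-06 and 0.00243). In FGF21KO muscle they were 0.03, 0.02 and -0.07, none past it. The direct difference of dKO from UCP1KO was -0.16 for Rbm3, with a 95% interval from -0.39 to 0.07, and 0.03 for Cirbp, from -0.09 to 0.14.

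**Figure D1:**
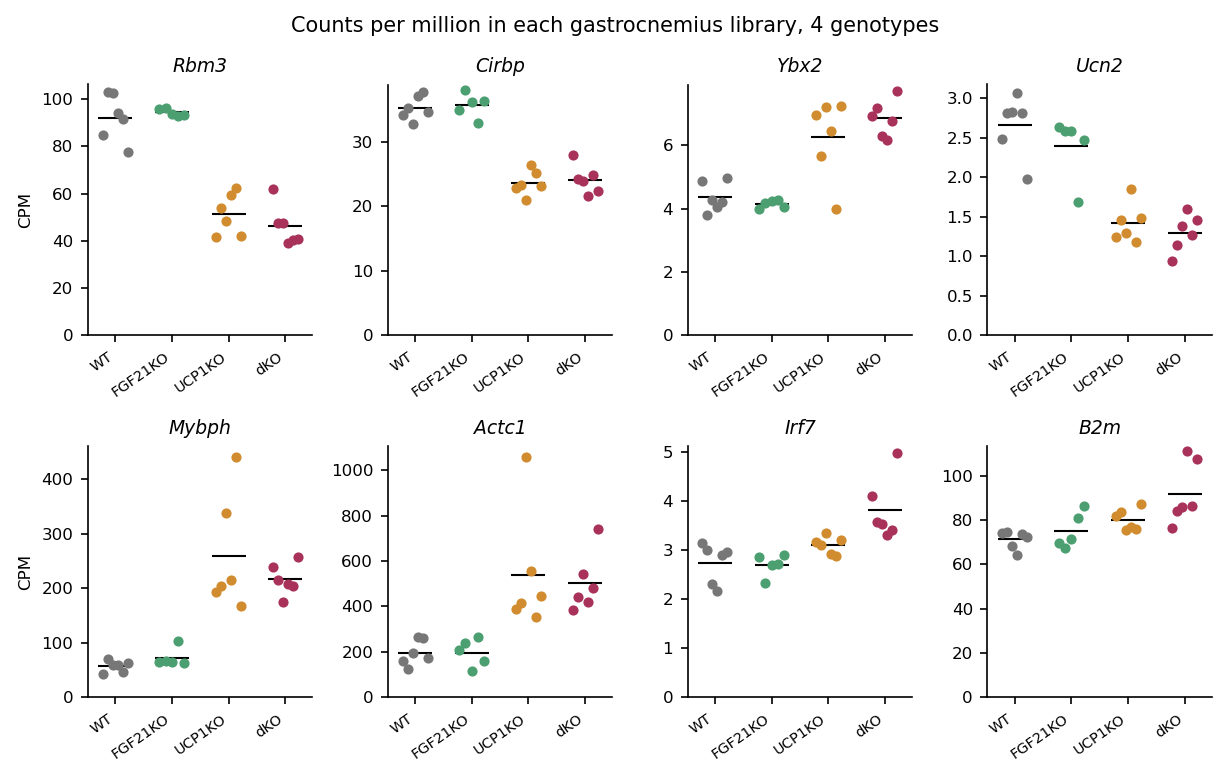
CPM (vertical axes, starting at 0) of 8 genes in each gastrocnemius library, by genotype (points are libraries, bars are group means). Rbm3, Cirbp and Ucn2 are lower and Ybx2, Mybph, Actc1, Irf7 and B2m higher in all 6 dKO than in all 6 WT libraries, for example 39.0 to 62.2 against 77.8 to 103 CPM for Rbm3.

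The upstream sequence of Cirbp is shown because an octamer, TCCCCGCC, has been described as its element for response to mild cold in mouse. The RefSeq window of 250 bases before to 50 after the gene start (build GRCm38.p6) holds it once, in capitals below, within the stretch from 250 to 190 bases before the start at chr10:80167589-80167649 on the + strand.
Cirbp: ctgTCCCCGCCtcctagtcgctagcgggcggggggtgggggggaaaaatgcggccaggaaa
The octamer or its reverse complement GGCGGGGA lies in 11.3% of the windows of tested genes that have one, so a match is common, and it is given as a description of the sequence alone. Rbm3 has no window in the promoter table used.

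The largest rises included muscle structural genes. Mybph, the myosin-binding protein H of the thick filament, ran from 42.8 to 70.5 CPM in WT (median 58.7) and from 175 to 256 CPM in dKO (median 211). The gap between the groups was wide (log2 fold change 1.93, SE 0.22, adjusted p = 2.74e-05). Actc1, the cardiac alpha actin that skeletal muscle uses in development and regeneration, ran from 125 to 265 CPM in WT (median 182) and from 382 to 742 CPM in dKO (median 462). Its log2 fold change was 1.36 (SE 0.28, adjusted p = 0.00421), again with no overlap. C130080G10Rik, a neighbour of Actc1 on chromosome 2 whose reads may not be fully separable from it, rose by 1.34 (SE 0.32) from at most 0.631 CPM in WT. In UCP1KO muscle Mybph stood at a log2 fold change of 2.20 and Actc1 at 1.46 against WT, and in FGF21KO muscle at 0.34 and 0.01. Among other genes with large rises, some were of low level. Orm1, an acute phase plasma protein gene of liver, ran from 0.392 to 0.972 CPM in WT and from 1.55 to 2.83 CPM in dKO (log2 fold change 1.51, SE 0.31). Map4k1, a kinase of blood cells, ran from 0.392 to 0.682 CPM in WT and from 0.977 to 1.17 CPM in dKO (0.98, SE 0.15), and the prostaglandin E2 receptor gene Ptger3 rose by 0.98 (SE 0.24). H2-Q10, a class I gene with close paralogs that can share reads, rose by 1.29 (SE 0.36, adjusted p = 0.0252), but not without WT replicate 3 (adjusted p = 0.0508) or dKO replicate 6 (adjusted p = 0.0679).

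Among genes with a mean of at least 1 CPM in WT or dKO, a reference name and no overlap, Ucn2 had a fall close to that of Rbm3. It encodes urocortin 2, a peptide of the corticotropin-releasing family that acts on muscle and vessels, and it ran from 1.97 to 3.07 CPM in WT (median 2.82) and from 0.943 to 1.60 CPM in dKO (median 1.33). The dKO libraries all lay below the WT libraries (log2 fold change -1.0, SE 0.14, adjusted p = 6.51e-05). Cd27, a receptor of the tumour necrosis factor family best known from lymphocytes, ran from 1.58 to 3.44 CPM in WT and from 0.943 to 1.56 CPM in dKO (-0.99, SE 0.23, adjusted p = 0.00784). Shc2, an adaptor of receptor tyrosine kinases, ran from 15.5 to 19.9 CPM in WT and from 8.04 to 12.9 CPM in dKO (-0.63, SE 0.13). Tiam1, an exchange factor for the GTPase Rac, ran from 14.0 to 19.7 CPM in WT and from 7.64 to 11.9 CPM in dKO (-0.73, SE 0.19). Both groups were separate for each of these genes. Gnb3, a G protein beta subunit, fell by 0.81, and the histone gene Hist1h4h, one of many similar copies, fell by 0.78. Atcayos, an antisense transcript of Atcay, ran from 123 to 157 CPM in WT and from 70.2 to 90.4 CPM in dKO (-0.85, SE 0.07, adjusted p = 3.68e-07). Whether counting used strand is not given in the sources used here, so its reads cannot be told from those of Atcay. The uncharacterised transcripts 8430426J06Rik, B930041F14Rik and B230312C02Rik fell by 0.97, 0.68 and 0.65.

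Many interferon-stimulated genes were higher in dKO by small amounts. Of 50 tested members of the list (Oas3 did not pass the low-count filter), 20 were higher and 0 lower in dKO, beside 4.85% of all genes higher, and all 50 had a positive log2 fold change. Their median was 0.31, against 0.0034 for all tested genes. With a covariate of 6 fat cell genes, added after seeing the data, 11 were called higher. Taking the pathway from its regulators to its targets, Irf9, a DNA-binding factor of the type I interferon response, ran from 6.34 to 7.30 CPM in WT and from 7.54 to 9.18 CPM in dKO (0.27, SE 0.06, adjusted p = 0.0083). Irf7, the factor that amplifies type I interferon production, ran from 2.17 to 3.14 CPM in WT and from 3.31 to 4.99 CPM in dKO (0.47, SE 0.10, adjusted p = 0.00493). All 6 dKO libraries were thus above all WT libraries for both regulators.

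The effectors followed the same pattern. Gbp2, a guanylate-binding protein that attacks intracellular pathogens, ran from 5.87 to 8.05 CPM in WT (median 7.11) and from 8.32 to 12.3 CPM in dKO (median 8.84), a rise of 0.46 on the log2 scale (SE 0.09, adjusted p = 0.00314). Bst2, or tetherin, which holds budding virus at the cell surface, ran from 4.02 to 5.07 CPM in WT (median 4.50) and from 5.75 to 7.47 CPM in dKO (median 5.96), a rise of 0.45 on the log2 scale (SE 0.10, adjusted p = 0.00385). Ifitm3, which blocks viral entry, ran from 20.1 to 25.2 CPM in WT and from 25.2 to 29.7 CPM in dKO (0.30, SE 0.06, adjusted p = 0.00381). Each of these was separate between groups, narrowly so for Ifitm3. Oas2, an RNA-sensing synthetase, rose by 0.70 (SE 0.14, adjusted p = 0.00284), with dKO replicate 1 alone inside the WT range of 1.96 to 2.79 CPM. Lgals3bp, a secreted scavenger receptor family protein, rose by 0.32 (SE 0.08, adjusted p = 0.0105). Oas, Gbp, Ifi and Ifit genes have close paralogs, so reads may be shared within each family.

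The promoters of the called interferon and antigen presentation genes were searched for the core of the interferon-stimulated response element, which is GAAA, any 2 bases and GAAA, and for its reverse complement, TTTC, any 2 bases and TTTC, in the RefSeq windows of 250 bases before to 50 after the gene start. A match lay in 9 of 16 called interferon genes with a window (56.2%), in 10 of 20 tested but uncalled ones (50%) and in 403 of 10834 tested genes with a window (3.72%). Of the called antigen presentation genes with a window, 2 of 9 (22.2%) held one. The 6 windows below are those of the called genes with the smallest p among matches before the start, each cut to the bases before the gene start around the match, which is in capitals (2 overlapping matches run together in Bst2, Gbp3 and Irgm1). They lie at chr3:142620554-142620662 (+) for Gbp2, chr8:71537537-71537652 (-) for Bst2, chr2:122147498-122147607 (+) for B2m, chr3:142559949-142560043 (+) for Gbp3, chr7:104465194-104465279 (-) for Trim30a and chr11:48871421-48871500 (-) for Irgm1, in GRCm38.p6, each written 5′ to 3′ on the gene's strand.
Gbp2: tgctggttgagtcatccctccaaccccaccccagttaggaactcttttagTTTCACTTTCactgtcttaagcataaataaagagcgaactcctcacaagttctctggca
Bst2: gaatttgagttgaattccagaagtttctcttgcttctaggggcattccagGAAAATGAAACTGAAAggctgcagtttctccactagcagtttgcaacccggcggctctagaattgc
B2m: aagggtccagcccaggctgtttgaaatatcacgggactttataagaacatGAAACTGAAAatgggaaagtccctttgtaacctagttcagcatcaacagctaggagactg
Gbp3: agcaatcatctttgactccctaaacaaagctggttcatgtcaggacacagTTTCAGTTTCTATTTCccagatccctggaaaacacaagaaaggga
Trim30a: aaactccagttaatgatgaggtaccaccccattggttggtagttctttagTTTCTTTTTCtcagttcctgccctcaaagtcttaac
Irgm1: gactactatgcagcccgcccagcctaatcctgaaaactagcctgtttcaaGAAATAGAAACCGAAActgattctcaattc
A match is a stretch of letters and shows no binding, and its absence from a window says nothing of the factor.

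Antigen presentation genes were also often called: of 24 tested, 11 were higher and 0 lower in dKO, beside 4.85% of all genes higher. All 24 had a positive log2 fold change and their median was 0.44. B2m, the light chain that every class I molecule needs, ran from 64.5 to 74.8 CPM in WT (median 73.2) and from 76.4 to 111 CPM in dKO (median 86.5). The groups did not overlap (log2 fold change 0.37, SE 0.08, adjusted p = 0.00422), and dKO replicates 4 and 6 lay highest. H2-D1, a class I heavy chain gene, ran from 56.2 to 67.5 CPM in WT and from 68.7 to 85.3 CPM in dKO (0.30, SE 0.06, adjusted p = 0.00174). Tap1, a subunit of the pump that loads peptides into the endoplasmic reticulum, ran from 2.52 to 4.45 CPM in WT and from 3.94 to 6.97 CPM in dKO (0.58, SE 0.14, adjusted p = 0.00942), with overlap. Tapbp, the tapasin that links that pump to class I, rose by 0.22 (SE 0.06). H2-Q7 rose by 0.95 (SE 0.23) and H2-Q4 by 0.46 (SE 0.12), 2 class I genes whose near-identical copies can share reads. Of the master regulators, Nlrc5, the activator of class I genes, rose by 0.62 (SE 0.17), but not without dKO replicate 6 (adjusted p = 0.0812), and Ciita, the activator of class II genes, rose by 0.85 (SE 0.23), but not without WT replicate 4 (adjusted p = 0.0503). The class II genes themselves did not pass: Cd74, the invariant chain, had a log2 fold change of 0.66 (adjusted p = 0.0741) and H2-Aa of 0.58 (adjusted p = 0.121). Without dKO replicates 1 and 6 together 5 antigen presentation genes were called higher.

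In the single knockouts the same lists looked different in number. Against WT, UCP1KO muscle had 3 interferon genes higher of 50, Ifitm3 and Irgm1 among them, and 0 of 24 antigen presentation genes, beside 12.3% of all genes called in that comparison (5.89% higher, 6.42% lower). FGF21KO had 0 of either list, beside 0.0198% of all genes called (0.00661% higher, 0.0132% lower). These comparisons share the WT libraries with dKO against WT. The direct comparison of dKO with UCP1KO called 0 genes, so no interferon or antigen presentation gene was shown to differ between them. Its point values leaned towards dKO, with a median of 0.19 over the 50 interferon genes. For Bst2 the difference was 0.37 (95% interval 0.17 to 0.57, adjusted p = 0.703), for B2m 0.20 (0.04 to 0.36, adjusted p = 0.845) and for H2-D1 0.22 (0.10 to 0.34, adjusted p = 0.703). These genes were named because they were called higher in the same dKO libraries against WT. Their intervals are unadjusted and lean upwards through that choice, so they do not show a difference from UCP1KO.

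Calls on macrophage genes were frequent but changed with the libraries used. Of 36 tested markers 16 were higher and 0 lower in dKO, beside 4.85% of all genes higher, 34 had a positive log2 fold change and the median was 0.50. In UCP1KO against the same WT libraries 8 were higher and 1 lower, with a median of 0.43. In that comparison 5.89% of all genes were higher and 6.42% lower. In FGF21KO 0 of these markers were called. The median difference of dKO from UCP1KO was 0.09. Itgam, the integrin alpha M chain of myeloid cells, ran from 1.86 to 4.16 CPM in WT (median 3.00) and from 3.88 to 6.36 CPM in dKO (median 5.06), with overlap at the edge (log2 fold change 0.79, SE 0.19, adjusted p = 0.00992). C1qb, a chain of complement C1q made by tissue macrophages, ran from 4.01 to 7.67 CPM in WT and from 8.41 to 10.1 CPM in dKO (0.56, SE 0.14, adjusted p = 0.0136), with no overlap. Ncf1, a subunit of the phagocyte oxidase, ran from 0.471 to 1.57 CPM in WT and from 1.64 to 2.05 CPM in dKO (0.82, SE 0.20, adjusted p = 0.00874), also with no overlap. Ctss, the lysosomal protease cathepsin S, rose by 0.68 (SE 0.18) and Mpeg1, the pore-forming perforin-2, by 0.73 (SE 0.20). Cd68, a lysosomal glycoprotein, and Csf1r, the receptor on which macrophages depend, had log2 fold changes of 0.51 (adjusted p = 0.114) and 0.30 (adjusted p = 0.255).

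The 16 macrophage calls became 6 without WT replicate 3, without WT replicate 4 or without dKO replicate 4. They became 8 without WT replicate 2, dKO replicate 5 or dKO replicate 6, and 10 without WT replicate 5 or 6. Without the low-count filter 9 were called, without dKO replicates 1 and 6 together 5, and with a covariate of 6 fat cell genes 1, Ncf1. The summed level of the 36 markers ran from 118 to 227 CPM in WT and from 201 to 258 CPM in dKO, with no marker at 0 in these libraries. In bulk tissue more cells of a type and more RNA per cell cannot be told apart. What part macrophage RNA has in the interferon and antigen presentation values was not tested.

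**Figure D2:**
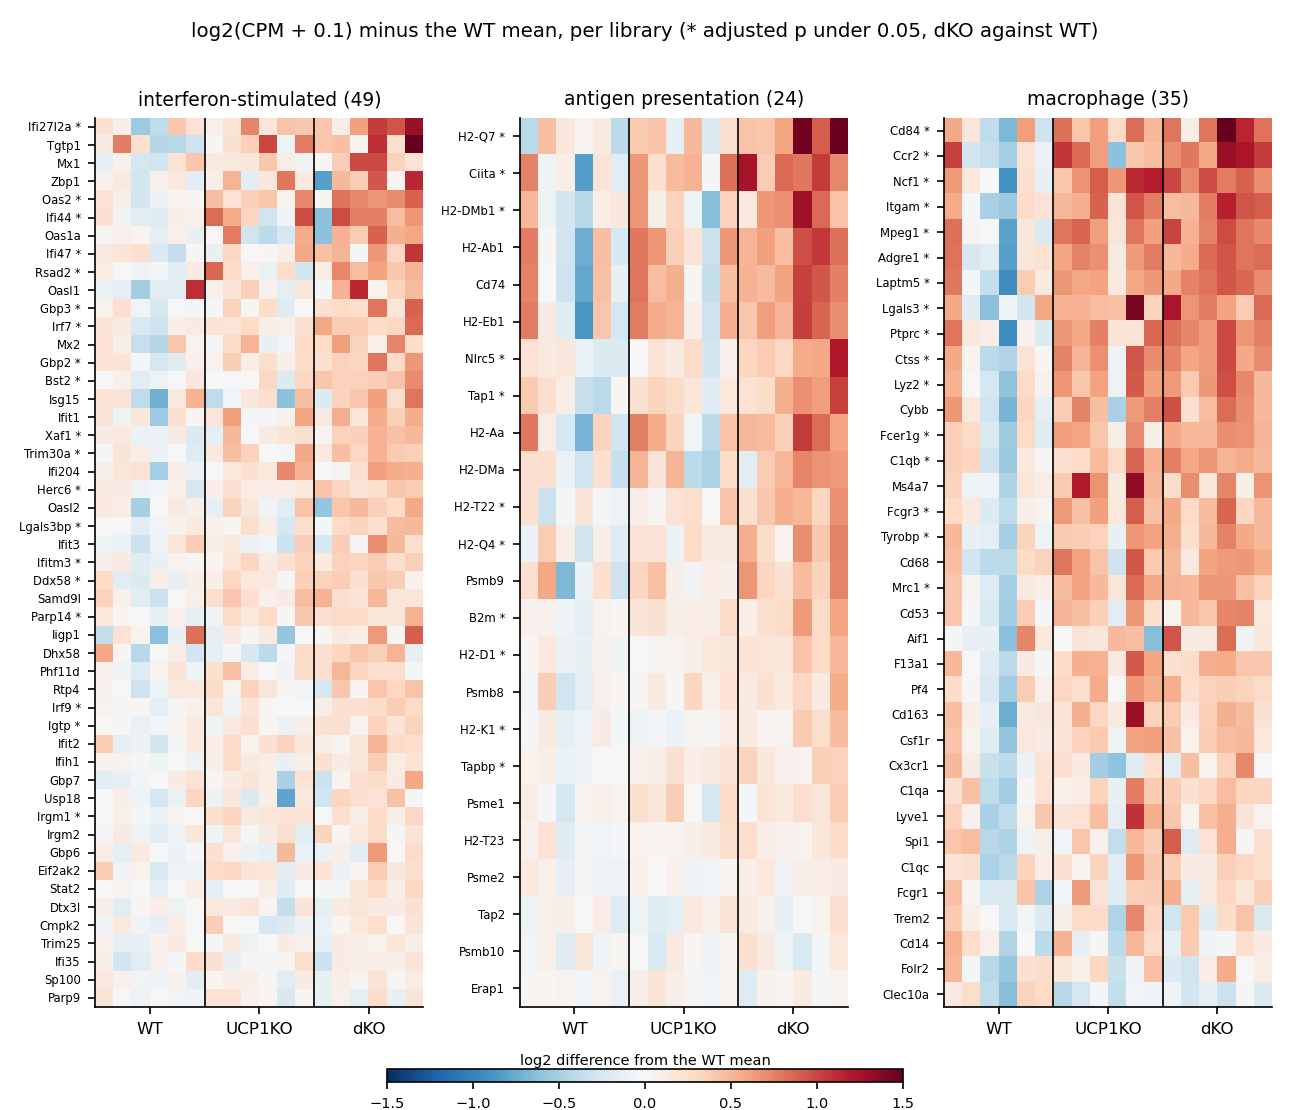
Each column is a library and each row a tested gene of the interferon-stimulated (49 drawn), antigen presentation (24) or macrophage (35 drawn) list, ordered by log2 fold change. Colour gives log2(CPM + 0.1) minus the WT mean (red higher, blue lower, limits at 1.5), and an asterisk marks an adjusted p under 0.05 for dKO against WT: 19, 11 and 16 of the genes drawn.

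Fewer markers of other cells passed the test. Of 13 tested chemokine genes 3 were higher and 0 lower (median 0.61), beside 4.85% of all genes higher. Ccl6, a chemokine of myeloid cells, ran from 2.89 to 6.33 CPM in WT and from 7.64 to 10.5 CPM in dKO (log2 fold change 1.02, SE 0.23, adjusted p = 0.00739), with no overlap. Ccl9 (0.75) and Cx3cl1 (0.47) held in 6 and 5 of the 12 fits that left out 1 library, and 1 of the 3 chemokine calls was left without WT replicate 3 or 4 or dKO replicate 4 or 5. Of 13 tested complement genes 3 were higher (median 0.22), beside the same 4.85% of all genes. C3, the component on which all complement pathways converge, ran from 38.8 to 67.7 CPM in WT (median 59.1) and from 88.5 to 120 CPM in dKO (median 98.5), with no overlap (log2 fold change 0.85, SE 0.16, adjusted p = 0.00229). Cfp, the stabiliser properdin, rose by 0.45 (SE 0.09), and C1s1, which has a close copy, by 0.26 in 7 of the 12 fits. Only 3 of the 18 listed lymphocyte genes passed the low-count filter; Cd2, an adhesion molecule of T cells, rose by 1.20 (SE 0.29, adjusted p = 0.00854) from a WT range of 0.0918 to 0.372 CPM to 0.331 to 0.695 CPM. None of the 3 tested neutrophil, 4 blood, 14 endothelial, 10 smooth muscle and pericyte, 8 tendon, 9 Schwann cell or 8 satellite cell genes was called, with medians of -0.39, -0.15, 0.08, -0.15, 0.42, -0.35 and -0.07. Of 26 extracellular matrix genes all 26 had a positive log2 fold change with a median of 0.26, and 1, the proteoglycan Bgn, was called (0.44, adjusted p = 0.0498, in 3 of the 12 fits).

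Some fat cell genes and genes of fatty acid synthesis were higher, unevenly over the libraries. Of 12 fat cell genes 5 were higher and 0 lower (median 0.59), beside 4.85% of all genes higher. The 5 were Fabp4 (0.28, in 6 of the 12 fits), Lipe (0.40), Car3 (0.41, in 8), Scd1 (1.15) and Cidea (1.75, in 5). Without dKO replicates 1 and 6 together 1 was higher. The count fell to 1 without dKO replicate 1, to 2 without WT replicate 3, 4 or 6 or dKO replicate 6, and to 3 without WT replicate 1 or 2 or dKO replicate 5. The summed level of 6 genes little expressed outside fat cells (Adipoq, Plin1, Cidec, Retn, Lep and Cfd) ran from 42.9 to 96.7 CPM in WT and from 70.8 to 128 CPM in dKO. Adiponectin itself, Adipoq, ran from 4.37 to 10.1 CPM in WT (median 7.71) and from 8.68 to 15.9 CPM in dKO (median 10.6) and did not pass (log2 fold change 0.62, adjusted p = 0.207).

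Among 18 genes of fatty acid synthesis 6 were higher and 0 lower (median 0.18), from acetyl-CoA supply to desaturation. Of all genes 4.85% were higher. Acly, which makes cytosolic acetyl-CoA, rose by 0.68 (SE 0.18) and Elovl6, which lengthens palmitate, by 0.90 (SE 0.27). Acaca, the carboxylase that commits carbon to fatty acids, ran from 20.7 to 29.2 CPM in WT (median 24.5) and from 33.1 to 46.2 CPM in dKO (median 38.4), with no overlap (log2 fold change 0.66, SE 0.11, adjusted p = 0.00106). Fasn, the fatty acid synthase, ran from 48.4 to 85.1 CPM in WT (median 68.0) and from 101 to 226 CPM in dKO (median 135), with dKO replicates 4 and 6 highest (1.14, SE 0.26, adjusted p = 0.00808). Scd1, the desaturase, ran from 127 to 220 CPM in WT and from 322 to 519 CPM in dKO (1.15, SE 0.26, adjusted p = 0.00829). Agpat2, an acyltransferase of triglyceride synthesis that is most abundant in fat, ran from 4.49 to 8.54 CPM in WT and from 10.1 to 26.0 CPM in dKO (1.11, SE 0.25, adjusted p = 0.00802). With the covariate of fat cell genes Acaca, Fasn and Scd1 stayed past the threshold (adjusted p = 0.000899, 0.00305 and 0.00167), at smaller log2 fold changes of 0.47, 0.66 and 0.67. The transcription factors of this pathway did not pass, Srebf1 at 0.07 and Mlxipl at 0.11 (adjusted p = 0.675 and 0.086).

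Among the WT and dKO libraries, some brown fat genes stood apart in 2 dKO libraries. Cidea, a lipid droplet protein of brown and beige fat, was at 8.76 and 13.1 CPM in dKO replicates 1 and 6, at 1.26 to 2.17 CPM in the other 4 and at 1.09 to 1.59 CPM in WT. Elovl3, a brown fat elongase, was at 3.94 and 4.87 CPM in the same 2 libraries, at 0.36 to 0.61 CPM in the other 4 and at 0.124 to 0.434 CPM in WT, as Ucp1 was highest there. Raised Ucp1 was not particular to these libraries. It ran from 4.42 to 6.40 CPM in FGF21KO and from 1.13 to 4.24 CPM in UCP1KO, beside at most 2.78 CPM in WT. Without dKO replicates 1 and 6 together the adjusted p was 0.637 for Cidea and 0.541 for Elovl3, whose call held in 5 of the 12 fits. That pair was chosen after these values were seen, as were Elovl3, Adipoq, Plin1, Cidec, Aldh1l1, Wdfy1, Hsd17b14, Sln and the myosin genes for naming. Other genes fell into separate ranges within a genotype. Aldh1l1, a folate enzyme, was at 58.7 to 61.7 CPM in dKO replicates 2, 3, 4 and 6, at 11.3 and 8.84 CPM in replicates 1 and 5 and at 7.15 to 10.9 CPM in WT, and its call held in 3 of the 12 fits. Nnt, the mitochondrial transhydrogenase that C57BL/6J mice carry in a deleted form, was at 106 to 124 CPM in dKO replicates 1, 4 and 6, at 40.5 to 57.6 CPM in the other 3 and at 35.8 to 52.2 CPM in WT (log2 fold change 0.92, adjusted p = 0.124). Wdfy1, an endosomal adaptor, was at 20.8 to 24.3 CPM in dKO replicates 2 to 5, at 15.5 and 14.9 CPM in replicates 1 and 6 and at 8.58 to 10.1 CPM in 5 WT libraries, with WT replicate 6 at 15.1 CPM.

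**Figure D3:**
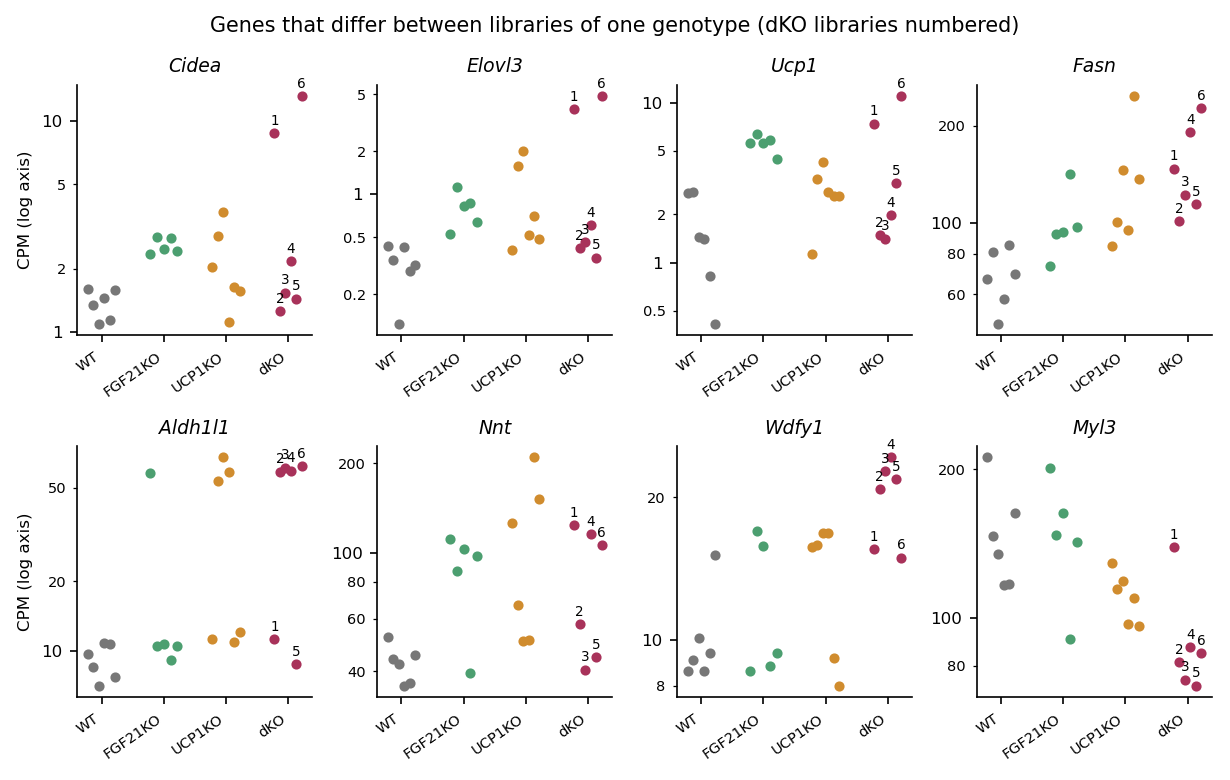
CPM (log axes) of 8 genes in each library by genotype, with the dKO libraries numbered by replicate. Cidea, Elovl3 and Ucp1 are highest in dKO 1 and 6, Aldh1l1 splits into libraries near 10 and libraries from 53.3 CPM upwards, and Myl3 is highest among dKO libraries in replicate 1.

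Many genes of fatty acid oxidation were higher by small amounts. Of 28 genes for fatty acid uptake and use 12 were higher and 0 lower, beside 4.85% of all genes higher. All 28 had a positive log2 fold change and their median was 0.19. None of the 12 moved over 1.5-fold. At the entry to the pathway, Cd36, the fatty acid translocase, ran from 257 to 360 CPM in WT (median 297) and from 357 to 417 CPM in dKO (median 377), just overlapping (log2 fold change 0.33, SE 0.06, adjusted p = 0.00198). Cpt2, the inner membrane carnitine palmitoyltransferase, ran from 55.0 to 69.3 CPM in WT (median 58.9) and from 73.1 to 86.8 CPM in dKO (median 80.3), with no overlap (0.41, SE 0.06, adjusted p = 0.000366). Acadl, the long-chain dehydrogenase of beta-oxidation, ran from 214 to 283 CPM in WT and from 289 to 317 CPM in dKO (0.28, SE 0.05, adjusted p = 0.00174). The very-long-chain dehydrogenase gene Acadvl rose by 0.25 (SE 0.05) and Hadha, a subunit of the trifunctional protein, by 0.25 (SE 0.05). Cpt1b, which controls entry of fatty acids into muscle mitochondria, had a log2 fold change of 0.03 (adjusted p = 0.702).

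Downstream, 7 of 22 citric acid cycle and pyruvate dehydrogenase genes were higher and 0 lower (median 0.09), beside 4.85% of all genes higher. Pdha1, the E1 alpha subunit of pyruvate dehydrogenase, ran from 811 to 881 CPM in WT (median 843) and from 938 to 1079 CPM in dKO, with no overlap (log2 fold change 0.27, SE 0.04, adjusted p = 5.58e-05). Dlst and Dlat, the E2 subunits of the oxoglutarate and pyruvate complexes, rose by 0.23 and 0.17 (SE 0.04 each), also with no overlap. The count was 3 without dKO replicate 2 or 6, and 4 without WT replicate 2 or 3 or dKO replicate 4. Of 74 nuclear-encoded respiratory chain genes 10 were higher and 1 lower (median 0.06), and 60 had a positive log2 fold change. The share called was 14.9%, beside 10.3% of all genes (4.85% higher, 5.46% lower). Ndufc1 of complex I rose by 0.18, Uqcrc2 of complex III by 0.17 and Cox6b1 of complex IV by 0.17, and Atp5g2, a gene for the c subunit of ATP synthase, fell by 0.17. The higher respiratory chain calls numbered 4 without WT replicate 3, 5 without dKO replicate 2 or 6 and 6 without WT replicate 2. Of 19 regulators around PGC-1, PPAR and ERR none was called (median 0.03), and Ppargc1a itself ran from 42.1 to 57.6 CPM in WT and from 45.9 to 78.7 CPM in dKO (0.36, adjusted p = 0.207).

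Of 15 genes for uncoupling and proposed heat cycles 4 were higher and 0 lower (median 0.16), beside 4.85% of all genes higher. Ckmt2, the mitochondrial creatine kinase of muscle, ran from 944 to 1288 CPM in WT and from 1339.7 to 1518 CPM in dKO, with no overlap (log2 fold change 0.40, SE 0.07, adjusted p = 0.000521). Ucp2, an uncoupling protein relative that immune cells express strongly, ran from 6.62 to 10.6 CPM in WT (median 8.40) and from 9.76 to 16.3 CPM in dKO (median 11.8) (0.58, SE 0.14, adjusted p = 0.0122). Slc25a5, an adenine nucleotide carrier, and Pm20d1, a secreted enzyme that makes N-acyl amino acids, had log2 fold changes of 0.27 and 0.75 and held in 4 and 3 of the 12 fits. Of these 4 calls 2 were left without any 1 of WT replicates 2 to 5 and dKO replicates 1, 4 and 6. Ucp3, the muscle uncoupling protein relative, ran from 81.4 to 152 CPM in WT and from 107 to 252 CPM in dKO and did not pass (0.34, adjusted p = 0.413). Of 34 glycolysis and glycogen genes 4 (11.8%) were higher and 0 lower (median 0.03). Of all genes 4.85% were higher and 10.3% were called in either direction. The 4 were Pgk1 (0.26), the liver-type phosphofructokinase Pfkl (0.39), the glycogen branching enzyme Gbe1 (0.35) and Stbd1 (0.47), which tethers glycogen. Of 19 calcium cycling genes 2 (10.5%) were lower and 0 higher (median -0.09), beside 5.46% of all genes lower. These were the sarcoplasmic reticulum proteins Srl (-0.19, adjusted p = 0.0052) and Ryr1 (-0.17, in 6 of the 12 fits). The fast muscle calcium pump gene Atp2a1 had a log2 fold change of -0.07 (adjusted p = 0.388).

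**Figure D4:**
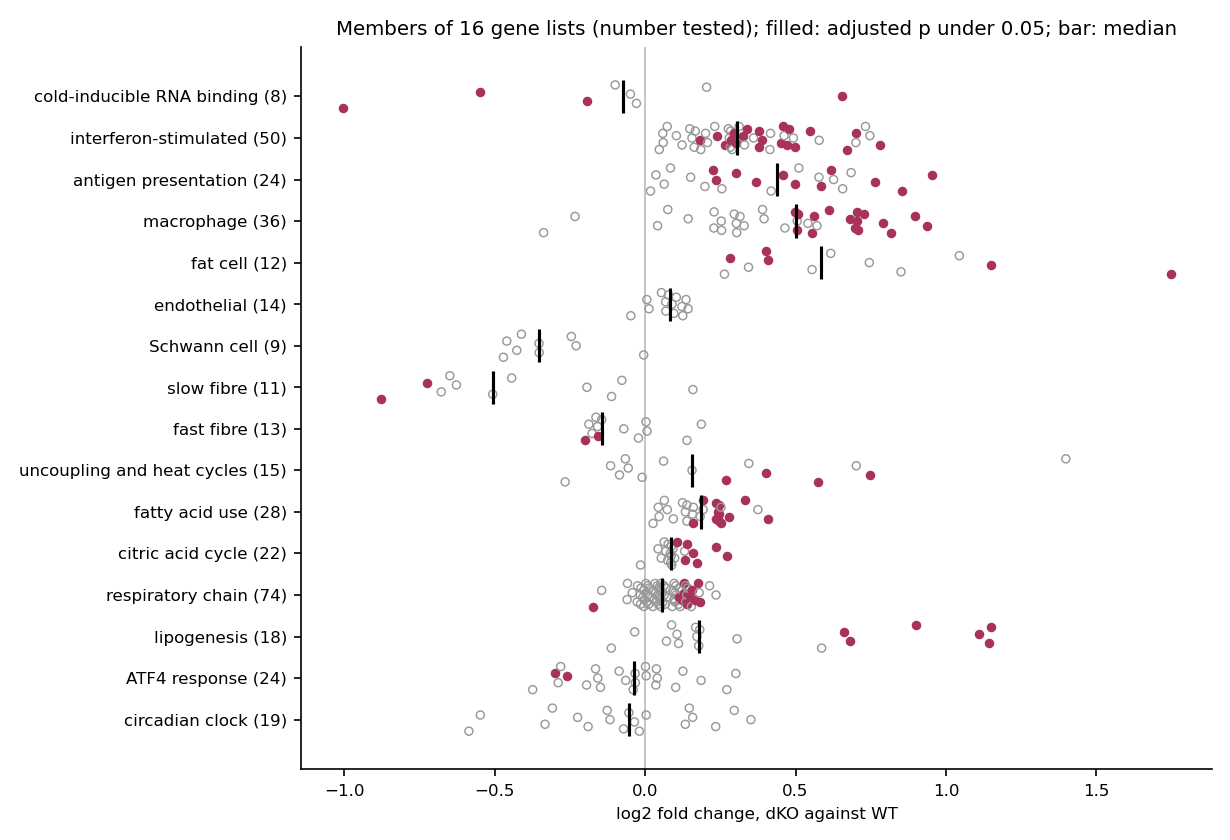
Log2 fold change of dKO against WT (horizontal axis) for each tested member of 16 of the 44 gene lists, with the number tested in brackets. Filled points have an adjusted p under 0.05 and black bars are list medians, for example 0.31 for interferon, 0.50 for macrophage and -0.51 for slow fibre genes.

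Slow fibre genes leaned downwards. Of 11, 2 were lower and 0 higher (median -0.51), beside 5.46% of all genes lower. Myl3, the slow and ventricular essential light chain, ran from 117 to 211 CPM in WT (median 141) and from 72.9 to 139 CPM in dKO (median 83.0), where replicate 1 lay at 139 and the others at most at 87.2 (log2 fold change -0.73, SE 0.19, adjusted p = 0.0166). Myl2, its regulatory partner, fell by 0.88 (SE 0.25, adjusted p = 0.0309), in 5 of the 12 fits. The slow myosin gene Myh7 ran from 272 to 679 CPM in WT and from 188 to 491 CPM in dKO and did not pass (-0.65, adjusted p = 0.141). With the fat cell covariate 0 slow fibre genes were called (adjusted p = 0.0665 for Myl3 and 0.0697 for Myl2). Without dKO replicate 1, 4 slow fibre genes were lower, and without any of WT 1, WT 6 and dKO 2 to 6, 1 was. Of 13 fast fibre genes 2 were lower (median -0.14): Tnnt3 (-0.20, adjusted p = 0.00827) and Tnni2 (-0.16, in 1 of the 12 fits), troponins of fast fibres; 5 were lower without WT replicate 1 and 1 without each other library. The fast myosins Myh4, Myh1 and Myh2 had log2 fold changes of -0.16, 0.19 and 0.14, none past the threshold. Fibre share along the dissected muscle was not measured here, and the summed level of the slow fibre list had a median of 1551 CPM in WT and 1139.5 CPM in dKO, with overlap.

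Called in either direction were 5.56% of denervation and developmental, 4.76% of atrophy and 18.2% of secreted muscle factor genes. Of all genes 10.3% were called (4.85% higher, 5.46% lower). Of 18 denervation and developmental genes Actc1 alone was higher (median 0.17). Myog, the myogenic factor that denervation induces, ran from 2.33 to 2.82 CPM in WT and from 3.01 to 5.10 CPM in dKO and did not pass (log2 fold change 0.51, adjusted p = 0.0916). Of 21 atrophy genes 1, the forkhead factor Foxo4, was lower (-0.18, SE 0.03, adjusted p = 0.00199; median 0.0049) and 0 were higher, against 2 lower and 4 higher with WT and dKO libraries alone. Of 11 genes for secreted muscle factors 2 were higher (median 0.28): Ostn, or osteocrin, which ran from 26.1 to 35.6 CPM in WT and from 41.6 to 50.3 CPM in dKO with no overlap (0.64, SE 0.16, adjusted p = 0.0166), and Gdf11 (0.45, in 7 of the 12 fits).

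Most stress and hormone lists showed few calls, while the heat shock and thyroid hormone lists had larger shares. Called in either direction were 8.33% of ATF4 response and 11.8% of immediate early genes. The share was 11.1% each for endoplasmic reticulum chaperone, glucocorticoid response and FGF signalling genes. Of all genes 10.3% were called (4.85% higher, 5.46% lower). Of 24 ATF4 response genes 0 were higher and 2 lower (median -0.04): Atf5 (-0.26, SE 0.05) and the lipoprotein receptor gene Vldlr (-0.30, SE 0.06), each with no overlap. Atf5 lies within 10 Mb of the targeted Fgf21 locus, and 1 gene was lower with the neighbours of both targeted loci left out. Of 18 endoplasmic reticulum chaperones 2 were higher (median 0.07), Pdia3 (0.23) and Sdf2l1 (0.44, in 4 of the 12 fits). Of 24 heat shock genes 4 (16.7%, beside 4.85% of all genes higher) were higher (median 0.10), against 9 with WT and dKO libraries alone and 7 with the fat cell covariate: Hsph1 (0.35), Hspa4l (0.35) and Hsp90aa1 (0.31), chaperones of the cytosol, and Hspd1 of mitochondria (0.14, in 7 of the 12 fits). Of 18 glucocorticoid response genes Dusp1 was higher (0.61, in 3 of the 12 fits) and the receptor Nr3c1 lower (-0.14, in 5 of the 12 fits). Of 17 immediate early genes Junb (0.76) and Fosl2 (0.42, in 7 of the 12 fits) were higher. None of 19 clock, 18 insulin and growth factor pathway or 8 vascular growth genes was called, with medians of -0.05, 0.02 and 0.13. Of 18 genes of FGF signalling Klb, the co-receptor that FGF21 needs, ran from 0.112 to 0.367 CPM in WT and from 0.265 to 0.861 CPM in dKO (1.35, SE 0.40, adjusted p = 0.0308, in 6 of the 12 fits), and Fgfr4 fell by 0.40 (SE 0.09, adjusted p = 0.00819). Of 7 thyroid hormone genes 2 were lower (28.6%, beside 5.46% of all genes lower), the receptor Thra (-0.21) and the transporter Slc16a10 (-0.31).

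Of 21 antioxidant genes 5 were higher and 1 lower (median 0.05): the peroxiredoxins Prdx3 (0.17), Prdx1 (0.16) and Prdx6 (0.15, in 9 of the 12 fits), Cat (0.34) and Sod2 (0.14) rose, and Nqo1 fell by 0.20; 3 were higher without WT replicate 3 or dKO replicate 2. Of 9 iron genes the ferritin heavy chain Fth1 (-0.16) and the iron sensor Fbxl5 (-0.19) were lower. Of 20 cholesterol genes Cyp51 was higher (0.36, in 5 of the 12 fits) and 1 was lower. Of 16 genes of branched-chain amino acid breakdown Hibch (0.19) and Mccc1 (0.16) were higher. The shares called were 28.6% of antioxidant, 22.2% each of iron and cell cycle, 12.5% of branched-chain and 10% of cholesterol genes, beside 10.3% of all genes. Of 18 cell cycle genes 4 were higher (median 0.22): Mki67 (1.45, in 10 of the 12 fits), Top2a (1.46, in 9), Cdk1 (1.5, in 5) and Ccna2 (0.70, in 3). These are genes of dividing cells at 0.0224 to 1.21 CPM, and their count was 0 without WT replicate 3, 1 without WT replicate 2 or 4 or dKO replicate 6, and 2 without WT replicate 5 or 6.

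Genes near the targeted Ucp1 locus were called more often than the rest. Within 10 Mb of Ucp1 (chromosome 8, 83290348 to 83298456) 33 of 121 tested genes were called (27.3%, beside 10.3% of all genes), 17 higher and 16 lower. Within 10 Mb of Fgf21 (chromosome 7, 45613890 to 45615490) 17 of 146 were called (11.6%). In UCP1KO against WT 33 genes were called near Ucp1 and in FGF21KO against WT 0. Zfp423, a transcription factor of fat cell precursors that lies within this distance of Ucp1, ran from 10.1 to 11.9 CPM in WT (median 10.6) and from 5.85 to 7.21 CPM in dKO (median 6.57), with no overlap (log2 fold change -0.74, SE 0.07, adjusted p = 1.08e-06). In UCP1KO it ran from 5.05 to 7.48 CPM and in FGF21KO from 9.83 to 11.2 CPM, so both groups labelled as lacking UCP1 lay below both others. Gm38426, in the same region, ran from 0.471 to 1.41 CPM in WT and from 2.37 to 2.82 CPM in dKO (1.63, SE 0.15, adjusted p = 3.68e-07), and Junb lies there too. Near Fgf21, 23 of the 146 genes were called in UCP1KO and 2 in FGF21KO. Hsd17b14, one of those neighbours, fell by 0.78 in dKO (SE 0.17, adjusted p = 0.00374), and stood at -0.69 in UCP1KO (adjusted p = 0.00718) and at -0.34 in FGF21KO (adjusted p = 0.995). For the neighbours of Ucp1, linked flanking sequence and loss of Ucp1 cannot be told apart.

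Beside the single knockouts, dKO muscle stood close to UCP1KO in the number of changes. UCP1KO differed from WT in 1860 genes (12.3%) and FGF21KO in 3 (0.0198%): Cd28 higher, and Mamstr and Rasip1, neighbours of Fgf21, lower. In UCP1KO 14 of 28 fatty acid use, 10 of 22 citric acid cycle and 6 of 18 fatty acid synthesis genes were higher. Also higher were 14 of 24 heat shock, 3 of 12 fat cell and 18 of 74 respiratory chain genes. Lower in these lists was 1 respiratory chain gene. Of 11 slow fibre genes 0 were called, with a median of -0.04. These counts stand beside 5.89% of all genes higher and 6.42% lower. FGF21KO had 0 calls in any of these lists. dKO differed from FGF21KO in 1173 genes (7.76%), 549 higher (3.63%) and 624 lower (4.13%), and in 770 without dKO replicate 6. Between dKO and UCP1KO edgeR called 0 genes (0%), with 877 at an unadjusted p under 0.05, and DESeq2 called 3: Mamstr, Rasip1 and Fez1, with log2 fold changes of -0.66, -0.47 and -0.65. Rasip1, which guides vessel formation, ran from 8.15 to 11.2 CPM in WT, from 6.21 to 8.65 CPM in dKO and from 9.25 to 11.9 CPM in UCP1KO. The interaction, which asks whether loss of UCP1 acts differently with and without FGF21, was called by edgeR for 0 genes, with 538 at an unadjusted p under 0.05, and by DESeq2 for 1. Counts at this depth and spread were simulated for dKO against WT, with 50 genes changed at each fold. The test returned 64% of them at the smallest simulated fold, which was under 1.5-fold, 90% at 1.5-fold and 96% at 2-fold. Recovery was not split by level, so these shares cannot be carried over to genes of low level. The other comparisons were not simulated. The absence of calls between dKO and UCP1KO does not show that they are alike.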

How the data were processed

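The authors deposited raw counts per gene, 1 file per library. STAR, HTSeq and the build mm10 are named for alignment and counting, per the submitters' processing notes; versions and annotation are not stated there. Per the labels' protocols, libraries were stranded, poly(A)-selected and sequenced as paired reads of 100 bp. The 23 muscle libraries were used, and the 67 of other tissues were not. Names occurring again (66) were summed to 32697 gene rows; 8427 carry an accession as name (10.7% to 13.5% of a library's counts), and rows naming no gene (under 0.02%) were dropped. A chi-squared statistic per degree of freedom of 7.22 to 37.0 over the 30 pairs within WT or within dKO shows no library deposited a second time within either group. Other pairs were not compared.

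The model was edgeR 4.0.16 in R 4.3.3: filterByExpr with a minimum count of 10, TMM (factors 0.944 to 1.04), robust quasi-likelihood F test over all 4 genotypes and Benjamini-Hochberg adjustment over 15120 genes. The standard error is the size of the log2 fold change over the square root of F. CPM values use TMM library sizes. The fit was tested on simulated counts with 200 changed genes. Precision is limited by 6 libraries a group and, in dKO replicate 1, by depth.

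Named genes were Ucp1, Fgf21, Fgf12 and Nnt, the called genes of largest fold (at most 12 in each direction) that had a reference name, no overlap and a group mean from 1 CPM upwards, all cold-inducible genes, and the called members with the smallest p in each of 44 lists (up to 8 per direction in 3 lists, 4 in the others); further members were named after their values were seen. The members and lists were chosen with earlier results of these data known. Alternatives were DESeq2 1.42.0, RLE size factors, no filter, WT and dKO alone, loci left out, a 1.5-fold minimum and each library left out; after seeing the data, dKO replicates 1 and 6 were left out together and a covariate from 6 fat cell genes was added. Gene positions and promoters are RefSeq's (GRCm38.p6). Figures used matplotlib 3.10.9. A few genes that enter the fits and counts are not reported here by name.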

Additional observations from a re-analysis of the deposited data

Results flagged for a closer look

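In 19 of 282 groups of 6 libraries (the WT or dKO libraries of a named gene), the highest or lowest library lay far from the others, with its gap to the nearest library divided by the range given in brackets. Chance gives about 1 in 20. In dKO replicate 6 the highest values were Agpat2 at 26.0 CPM (0.641; others at most 15.8), Cidec at 18.3 CPM (0.677; others at most 11.4), Bst2 at 7.47 CPM (0.788; others at most 6.11) and Nlrc5 at 4.57 CPM (0.762; others at most 2.93). In dKO replicate 1, Myh2 at 3950 CPM (0.789), Myl2 at 141 CPM (0.649), Myl3 at 139 CPM (0.783) and Rbm3 at 62.2 CPM (0.626) were highest, and Oas2 at 2.44 CPM (0.69) was lowest. In dKO replicate 4, Ccl9 at 7.43 CPM (0.627) and Ctss at 8.08 CPM (0.632) were highest.

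Among WT libraries, replicate 1 was highest for Gm38426 at 1.41 CPM (0.644), Hibch at 41.7 CPM (0.655) and Pm20d1 at 0.91 CPM (0.75), and lowest for Ybx3 at 1020 CPM (0.758). Replicate 2 was lowest for Hsph1 at 62.2 CPM (0.683), and replicate 5 for Nr3c1 at 94.1 CPM (0.688). Replicate 6 was highest for Wdfy1 at 15.1 CPM (0.771), and replicate 4 for Zfp423 at 11.9 CPM (0.69).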

How the results depend on the processing

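No paired analysis was possible because the labels carry no replicate numbers. Among genes called for dKO against WT in both the main and an alternative run, none changed sign. Nor did any called gene among the named genes followed through these runs. Signs of the other calls were not compared. For dKO against WT, 1558 calls became 243 over 1.5-fold, 999 without dKO replicates 1 and 6 together and 952 with the fat cell covariate (1092 to 1930 leaving out 1 library). The 733 higher calls became 173, 430 and 454 (478 to 927), and the 825 lower calls 70 over 1.5-fold and 498 with the covariate (584 to 1003). DESeq2 called 1880 genes, sharing 1551 with edgeR. UCP1KO against WT gave 303 over 1.5-fold and 1193 with the covariate (1317 to 2140), against 1860. The 3 FGF21KO calls became 0 with the loci left out and 1 over 1.5-fold or with the covariate (0 to 3). dKO against FGF21KO gave 151 over 1.5-fold and 638 without dKO replicates 1 and 6 (770 to 1192). DESeq2 called 3 genes between dKO and UCP1KO and 1 for the interaction, where edgeR called 0. Interferon calls (20) became 3 over 1.5-fold and 11 with the covariate (14 to 23). Antigen presentation calls (11) became 4, 5 without dKO replicates 1 and 6, and 7 with the covariate (8 to 15). Macrophage calls (16) became 9 without the filter, 5 without dKO replicates 1 and 6 and 1 with the covariate (6 to 19), and fatty acid use calls (12) became 0 over 1.5-fold (8 to 17). Causes were not tested. At 18.1 M counts dKO replicate 1 limits genes of low level.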

Other observations

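Sarcolipin (Sln), a regulator of the muscle calcium pump linked to heat production, ran from 1.30 to 3.01 CPM in WT and from 1.72 to 5.96 CPM in dKO (log2 fold change 0.77, SE 0.76, adjusted p = 0.572). In UCP1KO it ran from 2.02 to 65.1 CPM, and its log2 fold change against WT was 3.02 (adjusted p = 0.0104). The direct difference of dKO from UCP1KO was -2.25, with a 95% interval from -3.70 to -0.80 and an adjusted p of 0.845. Csdc2, a cold-shock domain gene, stood at -0.57 in UCP1KO (adjusted p = 0.0185) and -0.05 in dKO (adjusted p = 0.877), and the difference between these groups was 0.53 (0.20 to 0.85, adjusted p = 0.845). Fgf12, which the series text names once, had 3 to 27 counts in each WT and dKO library.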
